A study of Mus musculus with 10 samples.

Results

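The regions described here are the H3K27me3 peaks of neural stem cells (NSCs) that lay at sites without a called Polycomb group (PcG) peak in embryonic stem cells (ESCs) and without NSC Ring1b. They were chosen by position alone, as the peaks of the NSC H3K27me3 list that shared no base with any peak of the NSC Ring1b, ESC H3K27me3 or ESC Ring1b lists. This rule selected 780 of 1647 NSC H3K27me3 peaks, which is 47.4% of the peaks (exact 95% interval 44.9 to 49.8%), and they covered 1152000 of 3916000 bp, or 29.4% of the bases. They are called unmarked-site peaks below, where unmarked means that no peak was called in those 3 lists. That they lack Ring1b and ESC H3K27me3 is the rule itself and no result.

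The study profiled Ring1b, Cbx2, Ezh2 and H3K27me3 by ChIP-seq in J1 ESCs, a mouse line kept on feeder cells that were depleted before harvest, and Ring1b and H3K27me3 in NSCs differentiated from J1 ESCs in culture and grown with EGF and FGF. Each cell type and target had 1 library, so no value here has a replicate check and no difference between sets of peaks was tested. The deposited lists held the start and end of each peak in mm9, with no height, score or depth. All intervals in parentheses are exact 95% Clopper-Pearson intervals over the peaks of 1 library and cover counting error only.

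Polycomb repressive complex 2, whose catalytic subunit is Ezh2, trimethylates lysine 27 of histone H3, and the resulting mark, H3K27me3, is found at silent genes. Polycomb repressive complex 1, which contains Ring1b and Cbx proteins, can bind this mark and ubiquitylates histone H2A. In mouse ESCs both complexes are known to sit mainly at CpG islands, the CpG-rich stretches around many start sites, and in differentiated cells H3K27me3 is also known to spread in broad, shallow domains over silent genes and gene-poor DNA.

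Most of the few unmarked-site peaks at start sites were rich in CpGs, and most of the many elsewhere were poor in them. Sequences of both kinds are shown for comparison. The first 4 are the 200 bases directly upstream of the annotated start sites of Fgf4, Utf1, Cdh1 and St14, read 5′ to 3′ on the strand of the gene. All 4 stretches lie inside an unmarked-site peak, overlap no annotated exon and are intergenic promoter sequence of the mm9 genome. The last 2 are the middle 200 bases, on the forward strand, of the widest unmarked-site peak and of the widest peak in the block with the most peaks. Capitals mark every CpG.
Fgf4, chr7:152047091-152047290, forward strand: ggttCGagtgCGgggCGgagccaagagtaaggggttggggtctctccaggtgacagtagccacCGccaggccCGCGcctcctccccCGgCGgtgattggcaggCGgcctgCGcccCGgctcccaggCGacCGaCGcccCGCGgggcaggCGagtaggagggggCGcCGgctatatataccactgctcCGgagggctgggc
Utf1, chr7:147129488-147129687, forward strand: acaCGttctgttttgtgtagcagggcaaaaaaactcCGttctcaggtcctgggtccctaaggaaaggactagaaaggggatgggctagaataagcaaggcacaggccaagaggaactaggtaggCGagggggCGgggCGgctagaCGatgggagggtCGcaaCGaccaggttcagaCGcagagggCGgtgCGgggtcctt
Cdh1, chr8:109127051-109127250, forward strand: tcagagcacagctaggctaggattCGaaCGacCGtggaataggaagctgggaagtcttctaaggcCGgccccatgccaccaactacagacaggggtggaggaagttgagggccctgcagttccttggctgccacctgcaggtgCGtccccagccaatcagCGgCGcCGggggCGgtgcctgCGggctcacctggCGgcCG
St14, chr9:30939439-30939638, reverse strand: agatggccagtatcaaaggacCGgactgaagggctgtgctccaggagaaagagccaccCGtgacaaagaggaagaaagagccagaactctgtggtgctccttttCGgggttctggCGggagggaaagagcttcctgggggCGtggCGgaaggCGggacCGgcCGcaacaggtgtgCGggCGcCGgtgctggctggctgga
Widest peak, chr6:100084001-100084200, forward strand: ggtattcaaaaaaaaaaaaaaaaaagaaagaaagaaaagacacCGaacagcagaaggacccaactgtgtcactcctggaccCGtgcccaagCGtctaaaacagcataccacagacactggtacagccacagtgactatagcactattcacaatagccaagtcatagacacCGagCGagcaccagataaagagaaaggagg
Block near Bcor, chrX:11319701-11319900, forward strand: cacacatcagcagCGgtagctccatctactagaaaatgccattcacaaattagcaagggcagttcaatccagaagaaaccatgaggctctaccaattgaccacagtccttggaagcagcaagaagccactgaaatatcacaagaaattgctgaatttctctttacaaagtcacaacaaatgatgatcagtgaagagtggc
The Fgf4 stretch held 20 CpGs at 73% GC, the Utf1 stretch 11 at 58%, the Cdh1 stretch 12 at 65% and the St14 stretch 12 at 63%. The stretch near Bcor held 1 CpG at 42.5% GC. The middle of the widest peak held 5 CpGs at 44.5% GC, and with a CpG ratio, observed over expected CpGs, of 0.508 it was richer in CpGs than that peak as a whole (0.163) and close to the Cdh1 stretch (0.571).

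Most unmarked-site peaks were away from start sites. Only 39 of 780 contained a protein-coding start site, which is 5% (3.58 to 6.77%), and 66 lay within 1 kb of one, which is 8.46% (6.60 to 10.6%). A further 88 peaks lay in gene bodies and touched an exon, 174 lay wholly in introns, and 479, or 61.4% (57.9 to 64.8%), were intergenic. These shares were set beside 3 other groups of peaks, namely 441 NSC H3K27me3 peaks that overlapped NSC Ring1b, 426 NSC H3K27me3 peaks without NSC Ring1b that overlapped an ESC Ring1b or H3K27me3 peak, and 561 ESC H3K27me3 peaks that overlapped none of the ESC Ring1b, NSC H3K27me3 and NSC Ring1b lists. A start site lay inside 34.2% (29.8 to 38.9%), 42.0% (37.3 to 46.9%) and 31.2% (27.4 to 35.2%) of these, and within 1 kb of 43.3%, 65.0% and 51.3%. The rule leaves out NSC peaks that overlap ESC Ring1b or H3K27me3, and the first 2 of these sets are defined by overlap with lists in the rule. How much of the contrast follows from this choice of sites was not tested. With only peaks of at least 2 kb kept in every list, 29 of the 134 peaks left by the rule, or 21.6%, contained a start site. Only 106 of the 780 were at least 2 kb wide, so these 134 include peaks that overlapped a narrower peak of another list. The ESC group is the closest to a mirror image of the unmarked-site peaks, since it too lacks Ring1b and the mark in the other cell type.

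**Figure D1:**
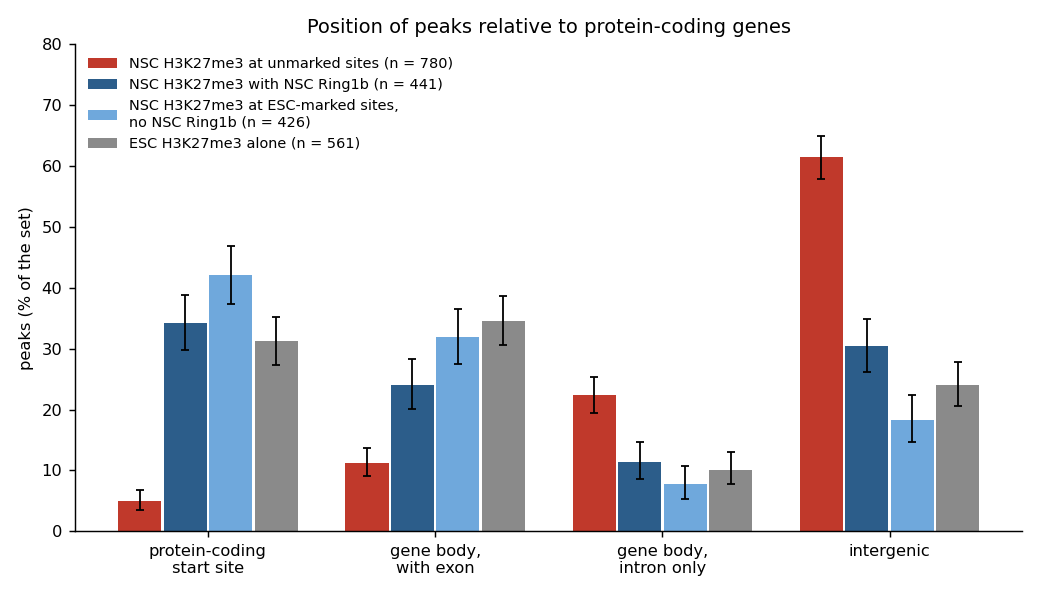
Share of peaks (y axis, % of the set) by position relative to protein-coding genes (x axis) in 4 sets of peaks, with exact 95% intervals as error bars. The unmarked-site peaks (red, 780) are the lowest at start sites, with 5%, and the highest between genes, with 61.4%.

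Distance from start sites showed the same contrast. The median unmarked-site peak lay 38042 bp from the nearest protein-coding start site (quartiles 11197 and 145910 bp), and 346 of them, or 44.4% (40.8 to 47.9%), lay more than 50 kb away. The median distance was 2567 bp for NSC peaks with Ring1b, 210.5 bp for those at ESC-marked sites and 759 bp for the ESC H3K27me3 peaks. Among the 741 unmarked-site peaks without a start site, 408 lay on the transcribed side of the nearest start and 333 on the other side, so no side was strongly favored. Within gene bodies they were spread along the gene, with 95, 92 and 75 peaks in 3 equal stretches counted from the start site.

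**Figure D2:**
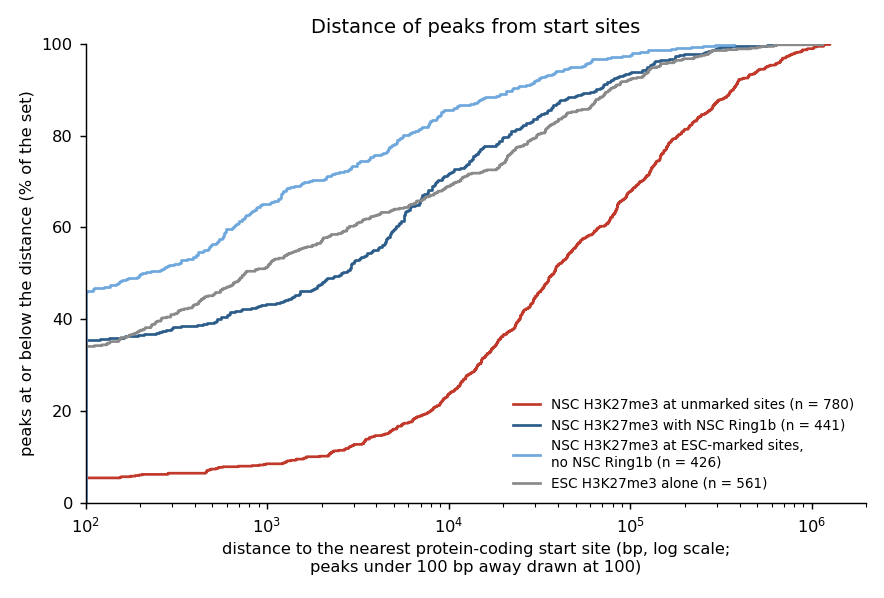
Cumulative share of peaks (y axis, %) by distance to the nearest protein-coding start site (x axis, bp on a log scale) for the same 4 sets. The curve of the unmarked-site peaks (red) lies below the others, with a median of 38042 bp against 2567 bp or less.

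The peaks were narrow. Their median width was 1200 bp (quartiles 1000 and 1600 bp, widest 10600 bp), 331 of them (42.4%, 38.9 to 46.0%) had the smallest width in the list, 1000 bp, and 106 (13.6%, 11.3 to 16.2%) were at least 2 kb wide. NSC peaks with Ring1b had a median width of 3000 bp, those at ESC-marked sites 1800 bp and the ESC H3K27me3 peaks 1400 bp. Start-site shares were therefore also taken by width, a division made after the data were seen. Among peaks of 1000 to 1400 bp a start site lay in 14 of 565 unmarked-site peaks (2.48%, 1.36 to 4.12%), against 10.5% (4.90 to 18.9%) of NSC peaks with Ring1b, 23.3% (16.9 to 30.6%) at ESC-marked sites and 24.2% (19.8 to 28.9%) of the ESC H3K27me3 peaks. At 1600 to 2000 bp the shares were 11.8% (6.76 to 18.7%), 18.5% (10.8 to 28.7%), 42.9% (33.8 to 52.3%) and 41.4% (33.5 to 49.7%), so that the first 2 intervals overlapped. Above 2000 bp they were 11.4% (5.59 to 19.9%), 46.4% (40.3 to 52.4%), 61.5% (53.1 to 69.4%) and 51.0% (36.3 to 65.6%).

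Base composition differed between most start-site peaks and most of the rest. Over all 780, the median GC content was 42.4% (quartiles 36.4 and 47.7%) and the median CpG ratio, the observed number of CpGs over that expected from the C and G content, was 0.165. The 10 kb on both sides of the peaks had medians of 42.8% and 0.185, so the unmarked-site peaks were as poor in CpGs as the DNA around them, and 316 of them (40.5%) had a higher GC content than their flanks. Median GC content and CpG ratio were 49.8% and 0.533 in NSC peaks with Ring1b, 58.0% and 0.622 at ESC-marked sites, and 56.6% and 0.511 in the ESC H3K27me3 peaks. A 500 bp window with the composition of a CpG island, at least 55% GC and a CpG ratio of at least 0.65, was found in 60 unmarked-site peaks, which is 7.69% (5.92 to 9.79%), and in 63.7%, 82.2% and 60.4% of the other 3 sets. As with start sites, how much of this contrast follows from the choice of sites was not tested. The 39 start-site peaks held 34 of these 60, so 87.2% (72.6 to 95.7%) of them had such a window, against 26 of 741 other unmarked-site peaks, or 3.51% (2.30 to 5.10%). Start-site peaks had a median GC content of 57.8%, a median CpG ratio of 0.646 and a median width of 1800 bp. The medians of the start-site peaks at ESC-marked sites without NSC Ring1b were 59.2%, 0.666 and 2200 bp.

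**Figure D3:**
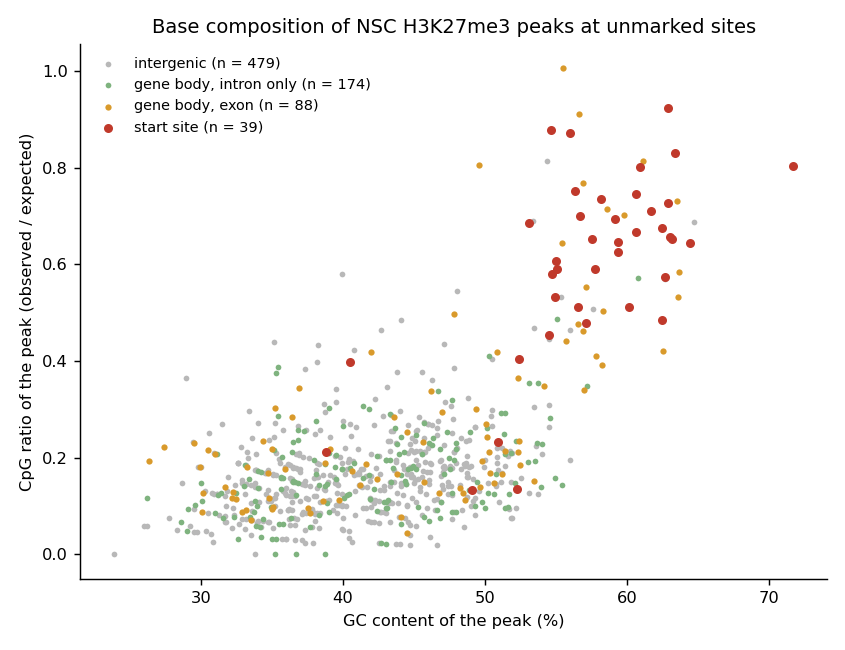
GC content (x axis, %) and CpG ratio (y axis, observed over expected) of each of the 780 unmarked-site peaks, colored by position. Start-site peaks (39, red) mostly lie at the upper right, with a median of 57.8% and 0.646, while intergenic peaks (479, grey) and intronic peaks (174, green) mostly lie below a CpG ratio of 0.4.

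Of the 26 other peaks with a CpG-island window, 9 lay within 1 kb of a start site, 16 touched an exon and 8 were intergenic. The following were chosen after their values were seen. At Epcam, which encodes an epithelial adhesion protein, a 1600 bp peak with a CpG ratio of 0.912 began 482 bp downstream of the start site. At Hes3, a Notch-related transcriptional repressor, a 1200 bp peak lay in an intron 571 bp from the start. An exonic peak of 1400 bp in Rims1, which encodes a protein of the presynaptic active zone, had a GC content of 55.5% and the largest CpG ratio of all the unmarked-site peaks, 1.01, and lay 370873 bp from the nearest start site.

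The start-site peaks covered the start sites of 42 of 22350 protein-coding genes, or 0.188% of them, and 71 genes (0.318%) had their start within 1 kb of an unmarked-site peak. Counts for gene lists are read against these shares. Of 39 annotated pluripotency and ESC-enriched genes, 3 had a start site in an unmarked-site peak, namely Fgf4, Utf1 and Lin28a. Of 38 epithelial junction and keratin genes, 4 did, namely Cdh1, Esrp2, St14 and Spint1, and Epcam was added within 1 kb. These are 7.69% and 10.5% of the genes listed. The lists were drawn up with results of these data known, so their counts are a description. The rule also leaves out peaks that overlap ESC Ring1b or H3K27me3. Of the pluripotency genes, 2 had a start under ESC H3K27me3 and 5 under ESC Ring1b, and of the epithelial genes 4 and 8. How much of the 2 shares follows from this choice of sites was not tested.

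Fgf4 encodes a growth factor that ESCs secrete. A 2200 bp peak at chr7:152046201-152048400 reached from 1090 bp upstream of its start to 1110 bp downstream and covered 2 of its 3 exons in part or whole and 28.8% of the gene. The nearest peak of the 3 excluded lists lay 19600 bp away, on the side of Fgf3. Utf1, a chromatin-associated protein of undifferentiated ESCs, was covered over its whole 1324 bp by a 2400 bp peak at chr7:147129001-147131400, with the nearest ESC H3K27me3 peak 47800 bp away. At Lin28a, an RNA-binding protein that blocks let-7 maturation, the 1800 bp peak at chr4:133573001-133574800 began 44 bp upstream of the start and lay almost wholly over the first 1756 bp of the gene. No peak of the 3 lists lay within 230800 bp of it.

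The related gene Lin28b differed. Its start site lay in an NSC H3K27me3 peak with NSC Ring1b, and a 1000 bp unmarked-site peak lay in an intron 39001 bp from its start. Foxd3, a pluripotency transcription factor, also had its start in an NSC H3K27me3 peak with NSC Ring1b, so that 5 of the 39 genes had their start under NSC H3K27me3 in all. The other genes of this list, among them Pou5f1 and Nanog, had no start site under any NSC H3K27me3 peak. Sox2, which was placed in the neural stem and progenitor list, did have its start under one.

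Cdh1 encodes E-cadherin, the adhesion molecule of epithelial cells and ESCs. A 2600 bp peak at chr8:109126001-109128600 reached from 1250 bp upstream of its start to 1350 bp downstream, and a second unmarked-site peak of 1600 bp lay near the end of the gene at chr8:109191401-109193000, 64150 bp from the start. The nearest peak of the excluded lists was 93200 bp from the promoter peak. Esrp2, a splicing factor of epithelial cells, had a peak of 1800 bp at chr8:108660201-108662000 that began 1126 bp upstream of its start and lay 198200 bp from the excluded lists. St14 encodes matriptase, a membrane-anchored serine protease, and Spint1 encodes its inhibitor. Their start sites lay in peaks of 2400 bp (chr9:30937801-30940200) and 2000 bp (chr2:119062201-119064200), 164800 bp and 68200 bp from the excluded lists. A protease and its inhibitor, on separate chromosomes, thus each carried an H3K27me3 peak over the start site in NSCs.

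Across the epithelial list, 11 of 38 genes had their start under some NSC H3K27me3 peak, as did 395 of 22350 protein-coding genes, or 1.77%. The other 7 were Cldn3, Esrp1, Ovol1, Ovol2, Grhl2, Dsp and Ocln. Of these, 3 lay in peaks with NSC Ring1b and 4 in peaks at ESC-marked sites, so that for Esrp1 and Esrp2, a pair of related splicing factors, the 2 starts fell into different sets. Dsp, a desmosomal protein, and Pkp1, a plakophilin, also had an unmarked-site peak within the gene body, of 1000 and 1200 bp.

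**Figure D4:**
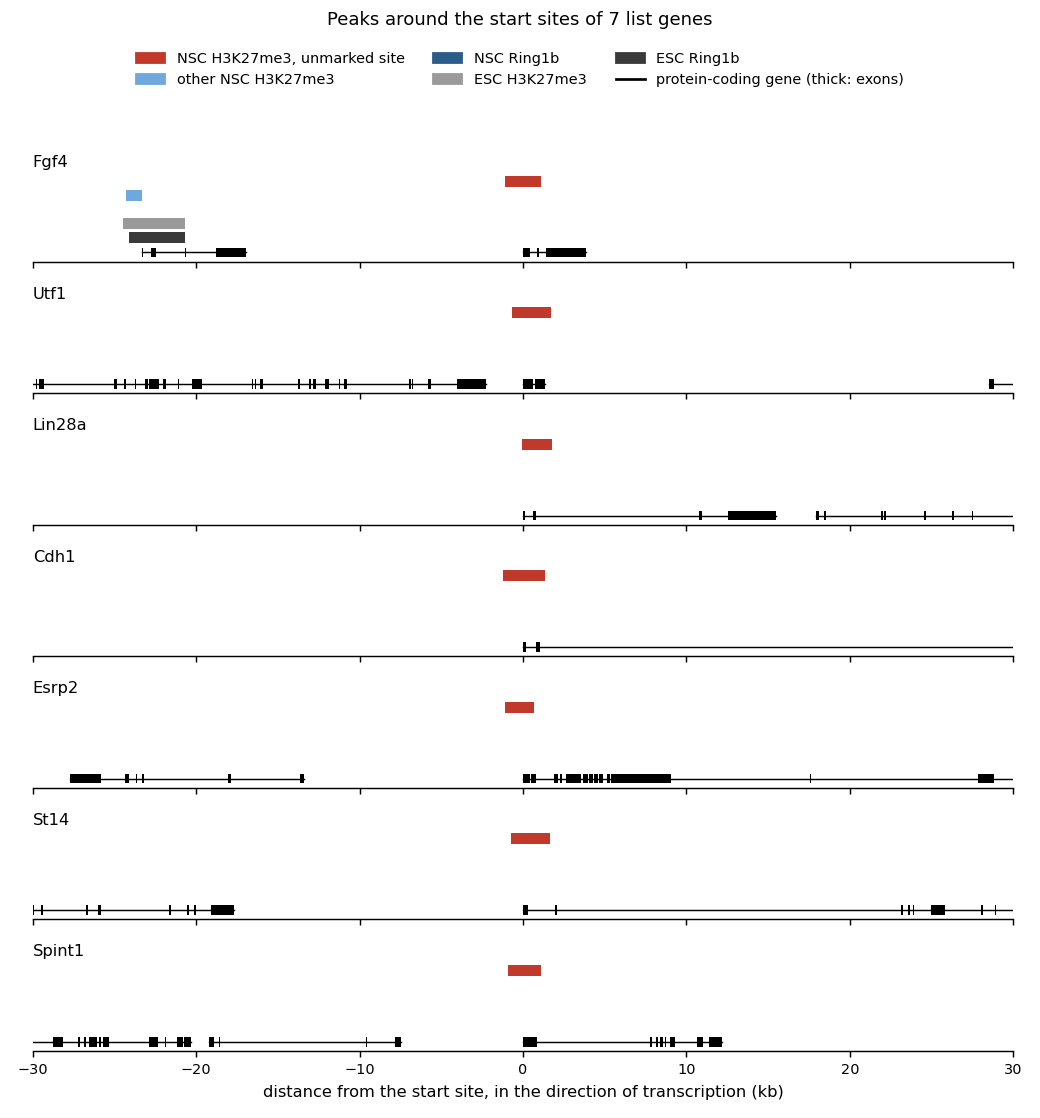
Peaks within 30 kb of the start sites of 7 genes (x axis, kb from the start site in the direction of transcription), with a lane for each peak list and exons below. Each start site lies in 1 unmarked-site peak (red), and the only other peaks in these windows lie about 20 kb upstream of Fgf4.

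Fgf4 was the only 1 of 65 growth factor and morphogen genes, where 9 had their start under NSC H3K27me3 of any kind. None of 39 Hox genes had a start in an unmarked-site peak, while 22 had one in some NSC H3K27me3 peak, 20 of them with NSC Ring1b. ESC Ring1b peaks held 37 of the 39 Hox starts and 32 of the 41 neuronal transcription factor starts, and the rule leaves out peaks that overlap them, so these counts were nearly fixed by the choice of sites. Among the 41 neuronal transcription factor genes the counts were 0 and 23, and among 31 mesoderm, muscle and heart genes 0 and 8. In the germline list, none of 30 genes had a start under any NSC H3K27me3 peak, and 10 had one under ESC Ring1b. Of the 30, 4 had unmarked-site peaks within the gene body, namely Sycp1, Smc1b, Asz1 and Rnf17. Such peaks were not particular to this list. Of the 65 growth factor and morphogen genes, 6 shared a base with an unmarked-site peak, Fgf4 among them. For all genes, 246 of 22350 shared a base with an unmarked-site peak, or 1.1%. Smc1b, a cohesin subunit of meiotic cells, had a peak of 1400 bp that lay 987 bp from its start and directly adjoined a peak of an excluded list, and another of 1000 bp 35987 bp away. Rnf17, a Tudor domain protein of germ cells, had peaks of 2800 and 1400 bp at 3667 and 38067 bp from its start.

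No start site of the remaining 6 lists (blood and immune, endothelial, endoderm, neural stem and progenitor, neuronal channel and synapse, and extracellular matrix) lay in an unmarked-site peak. At the share over all genes, 0.188%, lists of this size would hold less than 1 such gene, so a count of 0 is at the background. Of 49 neuronal channel genes, 3 had peaks in the gene body, namely Grin2b, an NMDA receptor subunit, Scn1a, a sodium channel, and Dlg2, a synaptic scaffold protein, at 5529, 150697 and 17328 bp from the start. The 246 genes that shared a base with an unmarked-site peak had a median length of 60911 bp, against 15427.5 bp for all protein-coding genes, and the part of gene length in these counts was not tested.

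As a check on the cell labels, marker genes were compared between lists. Of 9 ESC markers, Utf1 alone had its start under NSC H3K27me3 and none under ESC H3K27me3. Of 11 annotated NSC markers, 1 (Sox2) had its start under NSC H3K27me3, 6 under ESC H3K27me3 and 7 under ESC Ring1b. None of 6 fibroblast markers had its start under NSC H3K27me3. In the ESC lists, 1 of these 6 (Prrx1) lay under H3K27me3 and 2 (Twist1 and Prrx1) under Ring1b. Over all protein-coding genes, 1.77% had their start under NSC H3K27me3, so counts of 0 or 1 in lists this short say little. The lists hold no expression values, so the identity of the cells could not be checked further.

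The 15 widest start-site peaks included those of the list genes Cdh1, Utf1, St14, Fgf4 and Spint1. The widest, 3400 bp at chr1:134085601-134089000, covered the start of Lemd1, which encodes a LEM domain protein, from 2412 bp upstream to 988 bp downstream. Htr1d, a serotonin receptor, and Xkr6 had peaks of 3000 bp, the latter with only 40.5% GC. Tuba4a, an alpha-tubulin, had a peak of 2800 bp and Calcr, the calcitonin receptor, one of 2600 bp. Those of Kank1, which encodes a regulator of the actin cytoskeleton, and of Fgf4 were 2200 bp wide. Usp43, a ubiquitin protease, Gm11733, the neighboring pair Emb and Gm17509, the neighboring pair AI661453 and 1700001C19Rik, and Spint1 had peaks of 2000 bp, a width shared by Ccna1, which the 15 leave out. Of these 15 peaks, with Cdh1, Utf1 and St14 included, those at Xkr6 and Gm11733 had no CpG-island window. The start-site peaks as a group were isolated. None lay closer than 6400 bp to a peak of the 3 excluded lists, with a median of 164800 bp, 8 of 39 lay within 50 kb of one, and 5 of 39 lay within 50 kb of another unmarked-site peak.

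The upstream sequences were searched for the E-box CAGGTG, the site known to bind Snail and Zeb repressors, on both strands (CACCTG on the other). The motif was chosen because it is known from the Cdh1 promoter. The match at Cdh1, which is counted in the share below, was therefore known beforehand. In the 200 bases upstream of the start, Cdh1 held 3 copies, which began 69, 63 and 13 bases before the start, with the first 2 side by side. St14 held 1, beginning 33 bases before the start, Fgf4 held 1 at 154 bases, and Utf1 held none. Of the 42 genes with a start in an unmarked-site peak, 16 had at least 1 copy in these 200 bases, or 38.1% (23.6 to 54.4%), compared with 3070 of 22350 protein-coding genes, or 13.7%. The share was 14.2% (9.32 to 20.4%) of 169 genes with a start in NSC peaks with Ring1b, 19.6% (14.1 to 26.0%) of 184 at ESC-marked sites and 19.7% (14.1 to 26.3%) of 178 in the ESC H3K27me3 peaks, and the last 2 intervals overlapped that of the 42 genes. The medians were 12.5 CpGs per stretch in the 42 genes and 7 in all genes, and 11, 14 and 12 in the 3 other sets. A match gives the letters present and is not evidence that a factor bound there. The other genes with a match, besides Cdh1, St14 and Fgf4, included Tuba4a, Htr1d, Calcr and Usp43.

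Many unmarked-site peaks lay together. When peaks no more than 50 kb apart were joined, 240 of 780 (30.8%, 27.5 to 34.1%) fell into 82 blocks and 540 were single. There were 48 blocks of 2 peaks, 19 of 3 and 15 of 4 or more, and 11 of these had 5 or more. The median block spanned 24600 bp, and 58 of 82 blocks contained no protein-coding start site. In NSC peaks with Ring1b joined the same way, 59.9% lay in blocks, at ESC-marked sites 18.5% and in the ESC H3K27me3 peaks 9.80%, where no block held more than 3.

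Wider peaks were more often in blocks. The share in blocks was 24.5% (19.9 to 29.5%) of the 331 peaks of 1000 bp, 23.5% of those of 1200 or 1400 bp, 39.4% at 1600 to 2000 bp, 46.8% at 2200 to 3000 bp and 78.0% (62.4 to 89.4%) of the 41 peaks over 3000 bp. Peaks in blocks also lay nearer to NSC Ring1b. Of the 240, 105 (43.8%, 37.4 to 50.3%) had an NSC Ring1b peak within 50 kb, against 83 of 540 single peaks (15.4%, 12.4 to 18.7%). Distance to NSC Ring1b beyond a shared base was not part of the rule, but it was taken from the same list, so these shares are given as a description. By blocks, 36 of 82 had NSC Ring1b within 50 kb, 28 had another NSC H3K27me3 peak and 24 an ESC Ring1b or H3K27me3 peak.

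The block with the most peaks lay in a gene-poor stretch of chrX:11318401-11469800. Its 11 peaks covered 14800 of 151400 bp, were 1000 to 2800 bp wide with 37.5 to 49.6% GC, and overlapped no protein-coding gene. The nearest start site was that of Bcor, a subunit of a variant Polycomb complex, at 267681 bp. A single NSC Ring1b peak lay between them.

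The next block, chr16:37165201-37238600, held 8 peaks over 16800 of 73400 bp, all within Stxbp5l, which encodes a tomosyn that limits vesicle release. The DNA was AT-rich, with 28.6 to 40.0% GC in the peaks. The block also held 2 other NSC H3K27me3 peaks and 4 NSC Ring1b peaks. Over the whole 270021 bp of Stxbp5l there were 24 NSC H3K27me3 peaks, 10 of them at unmarked sites, and 14 NSC Ring1b peaks, so that the unmarked-site peaks here were interspersed with PcG peaks that NSCs did have. A 5000 bp peak at chr16:37207201-37212200 lay 2000 bp from an NSC Ring1b peak.

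Another block, chr9:61383201-61553800, held 8 peaks over 10800 of 170600 bp, with 43.3 to 51.9% GC and no peak of another list inside it. It overlapped no protein-coding gene, and the nearest start was that of Tle3, a Groucho-type corepressor, at 163011 bp. The nearest NSC Ring1b peak was 155800 bp away.

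The block at chr6:72136401-72190600 held 7 peaks that covered 22600 of 54200 bp, more bases than any other block. It contains Atoh8, which encodes a basic helix-loop-helix transcription factor, and 4 of the peaks covered 46.3% of the 29401 bp gene. The start site of Atoh8 itself lay outside them, in another NSC H3K27me3 peak that overlapped NSC Ring1b, ESC Ring1b and ESC H3K27me3. Of the other 3, 2 lay past the end of the gene and 1 lay 3430 bp upstream of its start. The peaks were as wide as 6800 bp (chr6:72169001-72175800) and 6400 bp (chr6:72140401-72146800, 38771 bp from the start).

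The fifth block, chr3:107295601-107391600, held 6 peaks over 10200 of 96000 bp. Of these, 2 lay in Slc6a17, a vesicular amino acid transporter of neurons, at 22936 and 17136 bp from its start. The start sites of Slc6a17 and Ubl4b lay inside the block but in none of its unmarked-site peaks.

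**Figure D5:**
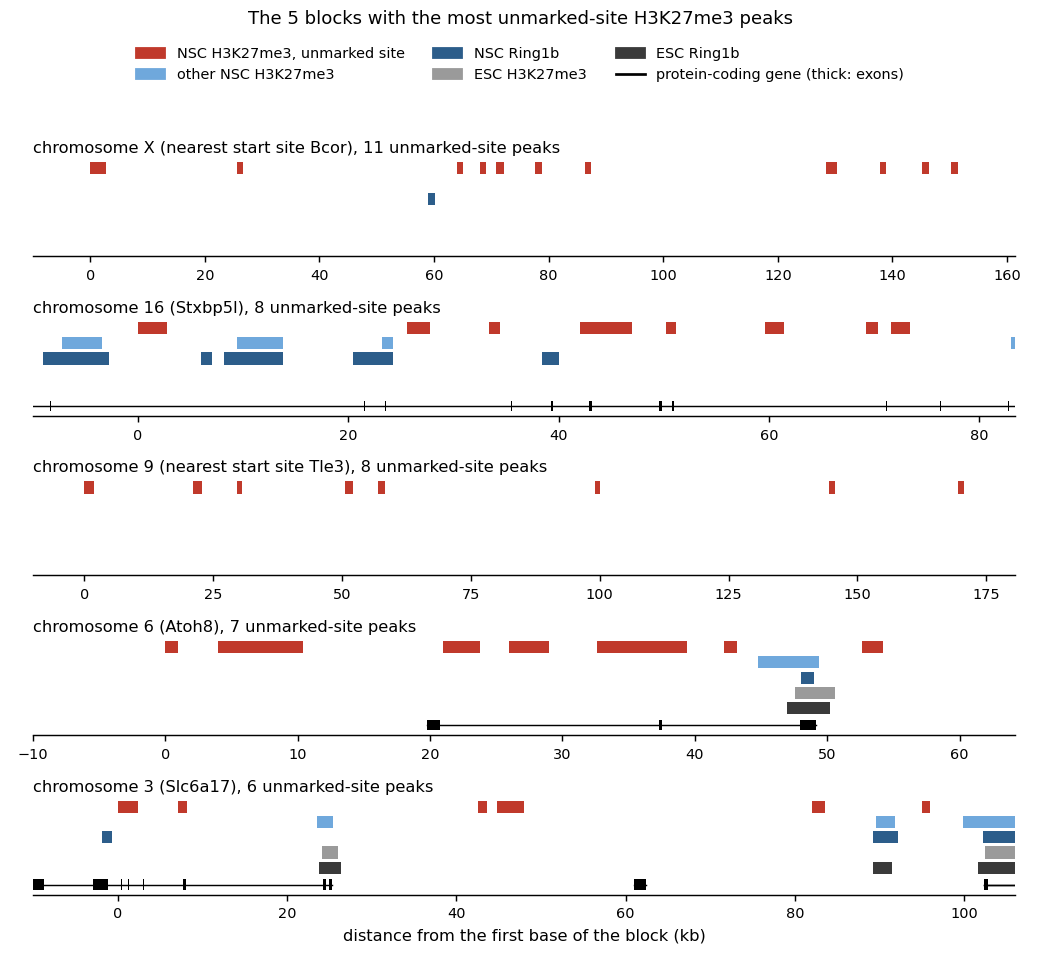
The 5 blocks with the most unmarked-site peaks (x axis, kb from the first base of the block, with 10 kb on both sides), with a lane for each peak list and genes with their exons below. The blocks on chromosomes X and 9 hold no gene and at most 1 NSC Ring1b peak, while those in Stxbp5l, Atoh8 and Slc6a17 lie among other NSC H3K27me3 and NSC Ring1b peaks.

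The 15 widest unmarked-site peaks, 4400 to 10600 bp, contained no start site, and 13 of them were in blocks. At 4400 bp 4 peaks were tied, 2 of them single, and the 15 leave out a single one in Cnpy1 and one in a block on chromosome 8. The widest, 10600 bp at chr6:100078801-100089400, was intergenic, with 46.9% GC and a CpG ratio of 0.163, and lay 148035 bp from the start of Rybp, which encodes a subunit of variant Polycomb repressive complex 1. It was 147600 bp from the nearest NSC Ring1b peak and in a block of 5. A 6400 bp peak at chr14:99202401-99208800 lay 236555 bp from the start of Mzt1, a microtubule-organizing protein.

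Others were inside genes. A 6800 bp peak at chr11:97406201-97413000 touched an exon of Srcin1, a Src inhibitor of neurons, 23540 bp from its start, and had the highest GC content of the 15, 56.9%. A 6200 bp peak (chr7:103936401-103942600) lay in an intron of Odz4, a teneurin, where 6 unmarked-site peaks covered 12600 bp in all. Casz1, a zinc finger transcription factor, held 5 such peaks over 15800 bp, the widest of them 5600 bp (chr4:148254601-148260200), 76063 bp from the start. Other wide peaks lay nearest to Gm1568 (6000 bp), BC107364 (5400 bp), Ctsb and Edn2 (5000 bp each) and Rgs8 (4400 bp), or in an intron of Gm960 (4400 bp). The 4400 bp peak near Rgs8, a regulator of G protein signaling, lay 600 bp from an NSC Ring1b peak.

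Few genes were covered over much of their length. Of the 246, 208 held 1 unmarked-site peak, 26 held 2 and 12 held 3 or more, with Stxbp5l, Odz4, Casz1 and Iqch holding the most. Among genes of at least 2 kb, Angptl4, a secreted inhibitor of lipoprotein lipase, had the largest share of its length under unmarked-site peaks, 68.0%, from a 1400 bp peak over its start and a 4000 bp peak within the gene. Atoh8 followed with 46.3%. B3gnt7, a glycosyltransferase (39.2%), and Nxph3, a neurexophilin (29.6%), held peaks that began 205 and 284 bp from the start and had CpG-island windows. Gm17509 and Gm11733 had 45.6% and 41.3%. The overlapping models RP23-108F2.6 and Gm8909 shared 1 peak (34.2% of each), and Gm7353 had 29.3%. In the peaks of these last 3 models, 74.5% and 20.5% of 32-base words occurred once in the genome, and the effect of this on the calls was not tested. Fgf4 completed the 10 with 28.8%.

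Repeated sequence was limited but not absent. In the median unmarked-site peak 97.9% of 32-base words occurred once in the genome, and in 55 peaks (7.05%, 5.36 to 9.08%) fewer than 50% did, compared with 0.907%, 3.05% and 1.96% in the 3 other sets. Peaks over start sites were at 89.7% or higher.

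The ESC lists that the rule did not use were nearly empty at these sites. An ESC Ezh2 peak overlapped 1 of 780 unmarked-site peaks, the 1800 bp peak at chr9:24345601-24347400, 38017 bp from the start of Dpy19l1, and an ESC Cbx2 peak overlapped 1, in an intron of Mid1 at chrX:166442001-166443000, where 20.5% of words occurred once. Each is 0.128% (0.00325 to 0.712%). Ezh2 overlapped 52.2% and Cbx2 49.0% of NSC H3K27me3 peaks with NSC Ring1b, and 56.3% and 24.6% of those at ESC-marked sites. In the ESC H3K27me3 peaks without ESC Ring1b they overlapped 2.67% and 0 of 561 (up to 0.655%), so the near absence of these lists was not particular to the unmarked-site peaks. Ezh2 places the mark and Cbx2 is found in the complex with Ring1b, so these lists share much of their positions with the lists in the rule and are no separate choice of sites.

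The boundary of the rule affected few peaks. The median distance from an unmarked-site peak to the 3 lists was 139600 bp, 29 (3.72%) lay within 1 kb, 81 (10.4%) within 5 kb of NSC Ring1b and 41 (5.26%) within 5 kb of an ESC Ring1b or H3K27me3 peak. On the inside, 5 peaks directly adjoined a peak of another list, near Sh3yl1, Prss16, Pitx1, Smc1b and Gtsf1, and 11 lay at most 200 bp away. On the outside, 6 NSC H3K27me3 peaks shared at most 200 bp with another list, and 5 of these lay near Rad21l, Fgf5, Gpr85, Zic1 and Adcy8.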

How the data were processed

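The authors deposited peak starts and ends in mm9 as BED lists, a list per ChIP library called against input. They counted paired tags in 1 kb windows at 200 bp steps, compared ChIP with input by a negative binomial distribution and merged enriched windows. The labels name BWA as aligner, and the paper another. The 4 inputs were not analysed here, and depth is unknown. Every deposited interval was a multiple of 200 bp and at least 1000 bp wide.

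Overlap meant at least 1 shared bp. Genes came from the GENCODE annotation of NCBIM37, the same assembly as mm9, with a start site per gene. Shares had exact 95% Clopper-Pearson intervals. Python 3.11.15, numpy 2.4.6 and scipy 1.17.1 were used, and the overlap, block and interval code was tested on simulated data. Regions, gene lists and comparisons were chosen with earlier results of these data known. Named regions were the 15 widest peaks, the 15 widest over a start site, the 5 largest blocks, the 10 most covered genes of at least 2 kb, list genes with a start inside, and peaks at the limit of the rule, of which some results are not reported here. No test across samples was possible with 1 library per group. Alternatives changed the overlap, distances, widths, merging, block gap, chromosomes and, added after the data were seen, repeats.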

Additional observations from a re-analysis of the deposited data

How the results depend on the processing

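Of 48 alternative values, 34 stayed within 1.5 times the main count or inside its 95% interval. Keeping only peaks at least 2 kb wide in all lists left 134 peaks by the rule in place of 780. Only 106 of the 780 were that wide, so the 134 include peaks that overlapped a narrower peak of another list. A start site lay in 21.6% of these 134 in place of 5%, and their medians were 47.2% GC and a CpG ratio of 0.216. A protein-coding gene was overlapped by 56.7% of them in place of 38.6%, with start-site peaks included. Among all 780, a start site lay within 1 kb of 8.46% and within 5 kb of 16.0%. Counting all annotated genes put 43.3% in genes. Peaks with at least 90% of words occurring once, an alternative added after the data were seen, gave 43.6% in genes and 43.4% median GC. The share in blocks was 18.6% at 10 kb, 25.3% at 25 kb, 36.2% at 100 kb and 38.5% when all NSC H3K27me3 peaks were joined. Other alternatives left 585 to 808 peaks. The E-box search was not repeated with other settings.

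No paired analysis was possible because each cell type and target had 1 library, and for the same reason no replicate was left out. The lists carry no scores, so peaks just under the calling threshold in ESCs cannot be told apart from unmarked sites.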

Other observations

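The X chromosome stood apart in its share of unmarked-site peaks. Of its 63 NSC H3K27me3 peaks, 53 (84.1%) were at unmarked sites, against 33.9 to 53.4% on the other chromosomes. None of the 53 contained a start site, 37 were intergenic, 12 lay in introns only and 4 touched an exon, and 0 of them had a CpG-island window. Their median GC content was 36.8%, the lowest of all chromosomes, and 15 lay in blocks. Per known megabase, X held 0.327 unmarked-site peaks, within the range of the autosomes (0.189 to 0.472).

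Among the large blocks, 1 lay in repeated sequence. At chr2:90242201-90262200, 5 peaks covered 7000 of 20000 bp, with 28.7 to 85.7% of 32-base words occurring once in the genome, and the nearest start was that of the olfactory receptor gene Olfr1272 at 119471 bp. Olfactory receptor genes form families of similar sequence, and whether tags from copies elsewhere contributed to these peaks was not tested.

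At Kcnq1, a potassium channel gene within an imprinted cluster, 3 unmarked-site peaks covered 4800 bp, the nearest of them 74842 bp from its start and 516800 bp from NSC Ring1b.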
